A study of Pseudotsuga menziesii with 26 samples.

Results

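Diesel exhaust from which the particles had been removed was set against filtered air in the needles of Douglas-fir (Pseudotsuga menziesii), a conifer whose needles stay on the tree for several years. The libraries compared were 4 of the 6 in the DECe Gas Phase group and all 6 in the Air Control group, out of 26 in the series. The 4 were chosen by their total count, at least 10000000 per library, and are called deep here. They are replicates 2, 3, 7 and 10. Just inside this limit lay replicate 10, with 13659729 counts, and just outside it lay replicate 5, with 6840719. Replicate 4, with 6349478 counts, was the other library left out. All 173882 transcripts of the count table were considered.

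DECe Gas Phase seedlings received exhaust of diesel fuel that carried an engineered cerium dioxide (CeO2) nanoparticle catalyst, and a HEPA filter had taken the particles out of it. Air Control seedlings received air passed through charcoal, Purafil and HEPA filters. Exposure ran for 6 hours a day on 5 days a week over 2 weeks, in December, when needle growth was dormant, and every chamber received filtered air between the exposures. The seedlings had a parent in common and were assigned to the atmospheres at random. The needles had grown in the year before sampling, on lateral stems, and messenger RNA was sequenced from each seedling on its own. The DECe group (n = 7) received the same exhaust unfiltered and the DE group (n = 7) received exhaust of diesel fuel. Each atmosphere had 1 chamber of 984 L, so an atmosphere and its chamber cannot be told apart. The spread behind every p-value is that among seedlings in the same chamber.

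A particle filter lets the gases of diesel exhaust through, among them carbon monoxide, nitrogen oxides and volatile organic compounds. Gases enter a needle mainly through the stomata and dissolve in the water that lines the cells inside. Plants can reduce absorbed nitrogen dioxide through the nitrate assimilation pathway, and they meet oxidant stress with antioxidant enzymes and glutathione conjugation. These pathways are background only. Gene names are not paired with the transcript identifiers in the deposited tables, so no function is given to any transcript below and the labelled tissue was not checked against marker genes.

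Total counts were 24924192 to 43560508 in the 6 air libraries and 13659729 to 36040778 in the 4 deep gas phase libraries. A set of 17 transcripts passed 1% of the counts in at least 1 of these 10 libraries. Together they took 42.7% to 55.9% of the counts in the gas phase libraries and 33.1% to 52.5% in 5 of the air libraries. Air Control replicate 14 stood apart at 81.6%, close to the 85.9% and 81.6% of the shallow gas phase replicates 4 and 5. The number of calls, the profile distances and the named transcripts are therefore also given without it. None of the 17 abundant transcripts was called between the groups, and 1 of them had an unadjusted p under 0.05. The most abundant by mean share in both groups was psme_t002753 (4295 nt), with 12.8% ± 5.98 of the counts in air (SD, n = 6) and 13.4% ± 3.57 in the deep gas phase libraries (SD, n = 4). Detected transcripts numbered 51271 ± 7314 in air (SD, n = 6) and 47808 ± 6436 in the gas phase (SD, n = 4), and 44818 ± 6278 and 44532 ± 2997 once every library was thinned to 13659729 counts.

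**Figure D1:**
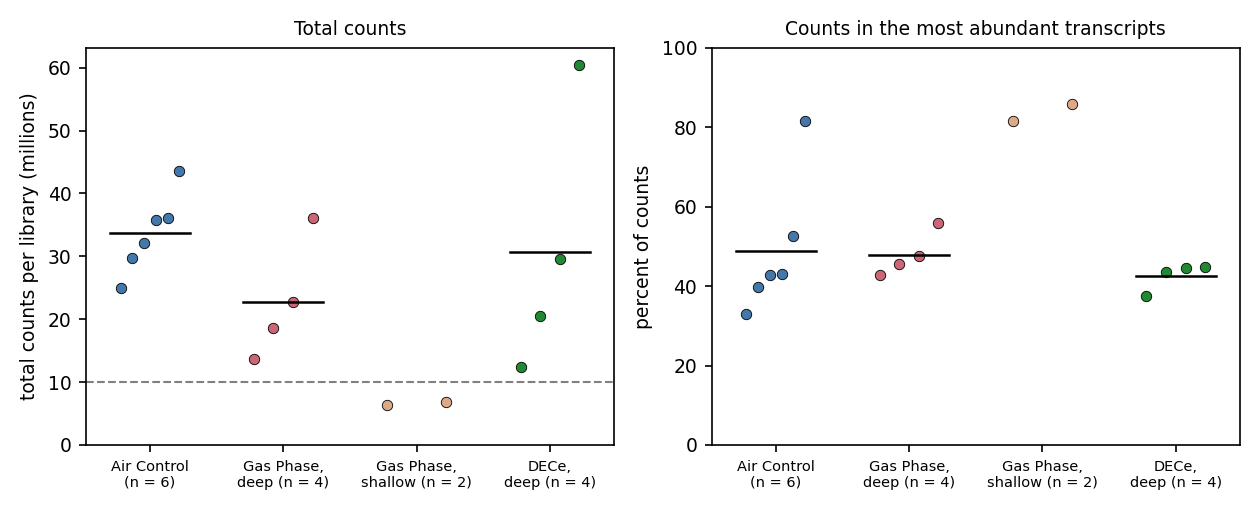
Total counts in units of 1000000 (left, dashed line at the limit of 10000000) and percent of counts in the 17 abundant transcripts (right); each point is a library and each bar a group mean, with no bar for the 2 shallow libraries. The deep gas phase libraries lie at 42.7% to 55.9% and the shallow ones at 81.6% and 85.9%. Air Control replicate 14 lies at 81.6% and the other air libraries at 33.1% to 52.5%.

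As whole profiles, gas phase and air seedlings were about as far apart as the gas phase seedlings were from each other. On log2 levels of the 30881 tested transcripts, the mean distance was 227 between the groups, 227 within the gas phase group and 206 within air. Without Air Control replicate 14 it was 222 between the groups and 189.8 within air. Group accounted for 15.9% of the squared distances (exact permutation test over 210 assignments, p = 0.0333, n = 4 and 6, smallest possible p 0.00476). That p rose above 0.05 when any 1 of Air Control replicates 5, 8, 11 and 15 or gas phase replicates 2, 3 and 10 was left out, with values of 0.0556 to 0.0833, and it was 0.0159 without Air Control replicate 14. The nearest profile to gas phase replicate 7 was Air Control replicate 3, and the nearest to gas phase replicate 10 was Air Control replicate 8. The first principal component (22.7% of the variance) mixed the groups, with gas phase replicate 3 beside Air Control replicates 11 and 14 at one end and gas phase replicate 7 beside Air Control replicate 3 at the other. On the second (17.8%), all 4 gas phase libraries lay between -116 and -28.7 and all 6 air libraries between 13.7 and 97.0.

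A small set of transcripts stood out from this background, and most of it was higher after filtered exhaust. Of the 30881 transcripts tested, 91 changed (0.295%), 75 higher (0.243%) and 16 lower (0.0518%) in the deep gas phase libraries (edgeR quasi-likelihood F test at a false discovery rate of 0.05). Among those that rose, 23 did so by less than 4-fold, 27 by 4-fold to 8-fold and 25 by 8-fold or more. The median log2 fold change of the 75 was 2.47, and that of all tested transcripts was -0.03. The 16 lower transcripts had a median of -2.36, and 5 of them fell by less than 4-fold, 6 by 4-fold to 8-fold and 5 by 8-fold or more. Of the 30881 tested transcripts, 3343 had an unadjusted p under 0.05 in the same edgeR test, so the 91 need not hold every difference. In bulk needles, fewer cells of a type and less RNA per cell cannot be told apart.

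The levels of every called transcript were separate in these libraries. For all 75 higher transcripts, the lowest gas phase library lay above the highest air library, as was so for 1.6% of the tested transcripts. For all 16 lower ones, the highest gas phase library lay below the lowest air library, as was so for 1.69%. The 91 were chosen for their difference in these same libraries, so this separation is no added support. Across fits that left out 1 library in turn the number of calls was 22 to 132. It fell to 22 without gas phase replicate 3 and to 51 without gas phase replicate 2. Without Air Control replicates 5, 11 and 15, each left out on its own, it was 52, 47 and 59. It was 97 without Air Control replicate 14 and 40 without both Air Control replicates 11 and 14. In all 10 of the fits that left out 1 library, 20 of the 91 were called, 19 higher and 1 lower, with a median log2 fold change of 2.86. The number of calls thus depended strongly on single seedlings. DESeq2 called 782 on the same libraries, the 91 among them.

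**Figure D2:**
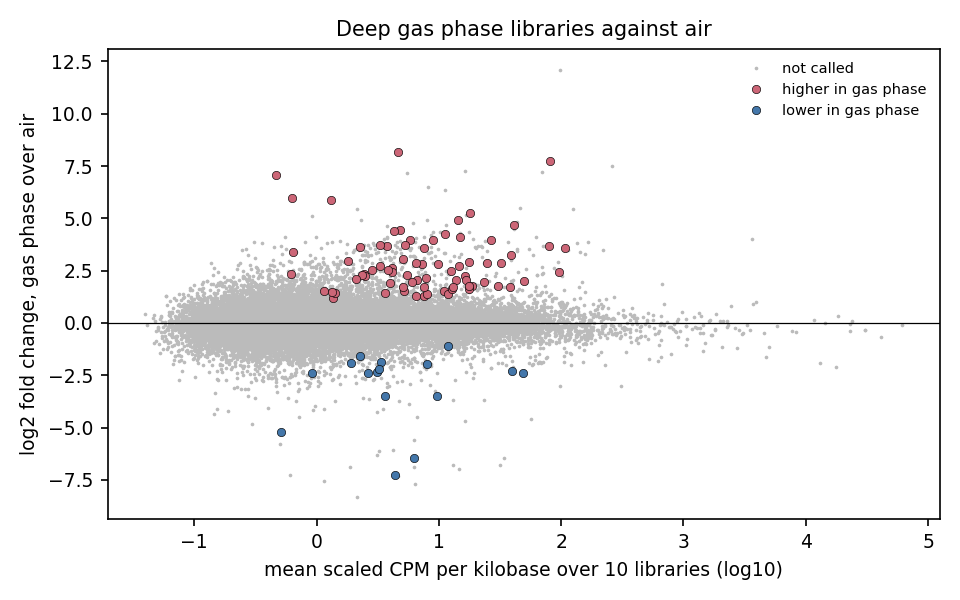
Log2 fold change of gas phase over air (vertical) against mean level per kilobase of transcript (horizontal, log10 of scaled CPM) for the tested transcripts with a known length. The 75 higher (red) and 16 lower (blue) transcripts lie among uncalled ones of like fold change, and the 17 abundant transcripts are not among them.

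The transcript with the smallest p-value, psme_t178408 (324 nt), was close to absent in air. It had 0 counts in Air Control replicates 3, 8, 11 and 14 and 1 count each in replicates 5 and 15. Gas phase replicates 2, 3, 7 and 10 held 50, 40, 425 and 28 counts, which is 1.96, 2.32, 8.41 and 2.32 CPM (counts per 1000000 after TMM scaling). All 4 gas phase seedlings thus lay above all 6 air seedlings, which was a condition for naming a transcript here. Replicate 7 was well above the other 3. Over the groups, 543 counts stood against 2, a ratio of 559 after scaling (95% exact interval 154 to 4628, for counting error only). Replicate 7 held 425 of the 543 counts, and without it 118 stood against 2, a ratio of 233 (95% exact interval 63.2 to 1950.0). In edgeR the log2 fold change was 8.20 with all 10 libraries (adjusted p = 0.00189). It was 7.37 without gas phase replicate 7 (edgeR adjusted p = 0.00430) and 8.16 without Air Control replicate 14 (edgeR adjusted p = 0.00518). The 2 shallow gas phase libraries had 0 counts, where a floor of 3 counts stands for 1.90 CPM in replicate 4 and 3.54 CPM in replicate 5. The levels of replicates 2, 3 and 10 lay just above the floor of replicate 4 and below that of replicate 5. The level of replicate 7 lay above both floors.

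The other rising transcript named by the rule, psme_t045236 (1044 nt), was present in all 10 libraries. Its levels in Air Control replicates 3, 5, 8, 11, 14 and 15 were 7.00, 15.04, 8.15, 6.03, 11.9 and 6.78 CPM. In gas phase replicates 2, 3, 7 and 10 they were 123, 63.0, 89.0 and 73.5 CPM. The lowest gas phase seedling was thus well above the highest air seedling. Group means were 9.16 ± 3.56 CPM in air (SD, n = 6) and 87.1 ± 26.1 CPM in the gas phase (SD, n = 4). The difference on the log2 scale was 3.25 ± 0.31 (SE), with an adjusted p of 0.00198 in edgeR. The adjusted p was 0.00241 to 0.00975 over the fits that left out 1 library, and the log2 difference was 3.34 without Air Control replicate 14. Shallow replicates 4 and 5 were at 10.8 and 23.6 CPM, from 17 and 20 counts, so the first lay within the air range and the second above it.

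Of the transcripts that fell, psme_t004745 (3653 nt) had the smallest p-value. Its levels in Air Control replicates 3, 5, 8, 11, 14 and 15 were 14.2, 15.7, 16.8, 18.5, 17.2 and 21.4 CPM. Those in gas phase replicates 2, 3, 7 and 10 were 3.72, 4.88, 4.31 and 6.04 CPM. Both groups were tight, and the gap between them was wider than either range. The means were 17.3 ± 2.48 CPM in air (SD, n = 6) and 4.74 ± 0.988 CPM in the gas phase (SD, n = 4). On the log2 scale the difference was -1.87 ± 0.23 (SE), and edgeR gave it an adjusted p of 0.00808. Without Air Control replicate 14 the difference was again -1.87 (edgeR adjusted p = 0.0133). The call ended with library sizes alone as the scaling, where the log2 difference was -1.90 (edgeR adjusted p = 0.163). It also ended in limma, with -1.25 on log2(RPKM + 1) and -1.65 on log2(RPKM + 0.1) (adjusted p = 0.345 and 0.489).

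The second, psme_t005030 (3588 nt), was at 12.1, 12.9, 18.4, 20.3, 16.2 and 19.8 CPM in Air Control replicates 3, 5, 8, 11, 14 and 15. In gas phase replicates 2, 3, 7 and 10 it was at 2.00, 2.38, 3.46 and 5.29 CPM. The groups did not overlap, again as the rule for naming required, and replicate 10 was highest of the gas phase seedlings for both falling transcripts. Its log2 difference of -2.35 ± 0.32 (SE) had an adjusted p of 0.0104 in edgeR, and without Air Control replicate 14 these were -2.35 and 0.0191. The call ended without gas phase replicate 3, where the log2 difference was -2.22 (edgeR adjusted p = 0.0540). It also ended in limma, with -1.50 on log2(RPKM + 1) and -2.13 on log2(RPKM + 0.1) (adjusted p = 0.135 and 0.159). This transcript and psme_t004745 are alike in length and level, with a count ratio of 0.820 to 1.10 in the air libraries and 0.488 to 0.877 in the gas phase ones. Without their sequences it cannot be told whether they are copies that share reads, so they may not be separate observations. In shallow replicate 4 both were at 3.16 CPM, from 5 counts each, and in shallow replicate 5 both had 0 counts against a floor of 3.54 CPM.

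**Figure D3:**
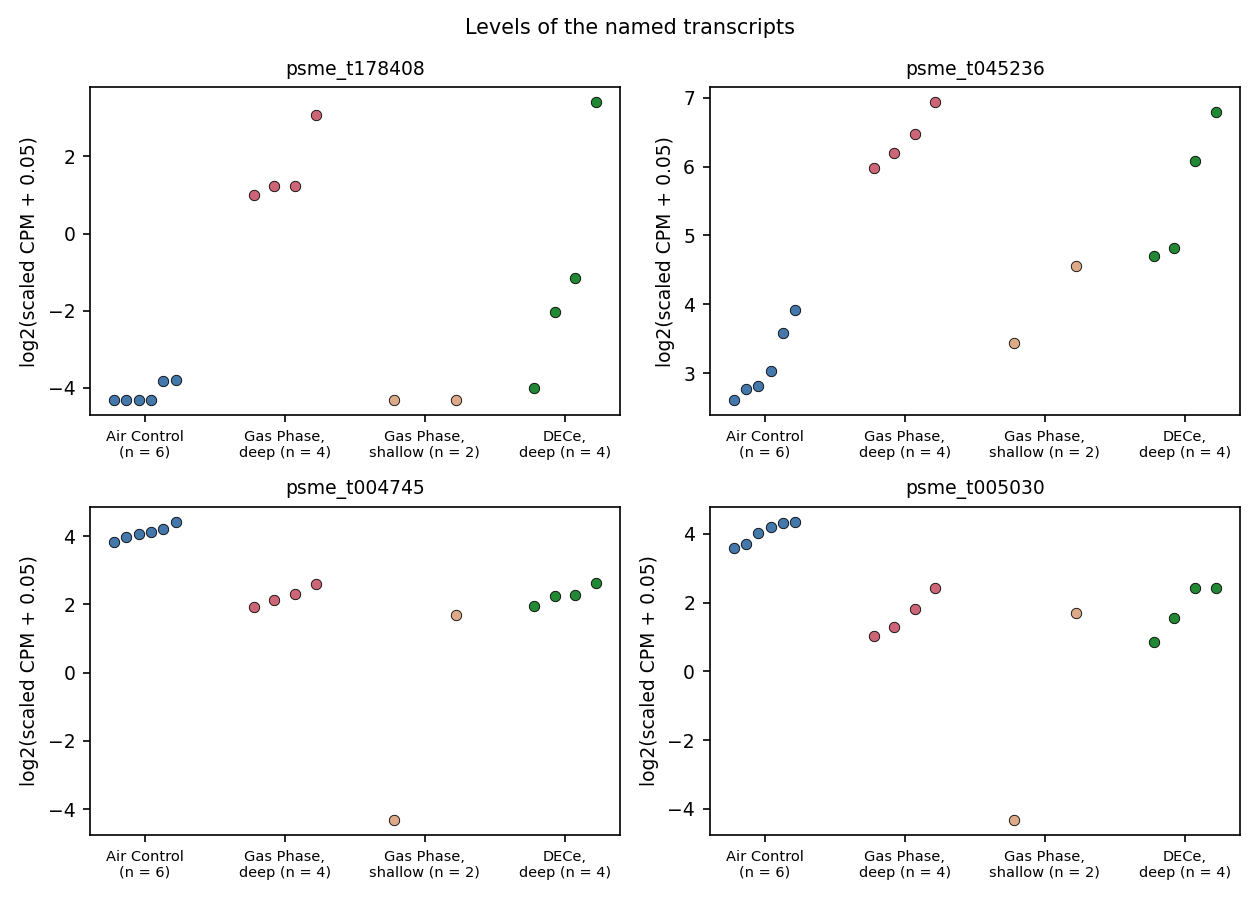
Levels of the 4 named transcripts as log2(scaled CPM + 0.05), each point a library, for air, the deep and shallow gas phase libraries and the deep DECe libraries. In all 4 panels the deep gas phase points lie clear of the air points, which was a condition for naming a transcript. In the upper left panel the shallow libraries and 4 air libraries sit at 0 counts.

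Per kilobase of transcript, which allows levels of different transcripts to be compared, the rising transcripts held both ones at low and ones at higher levels in air. The division used here, at 1 CPM per kilobase in air, was set after the values were seen. In air, 23 of the 75 were below 1 CPM per kilobase, with a median of 0.661. In the gas phase these 23 had a median of 4.48 CPM per kilobase, and their median fold change was 12.4. One of the 23 (462 nt) had 0 counts in all air libraries and 0.542 ± 0.301 CPM in the gas phase (SD, n = 4), at least 2.15-fold above a floor of 3 counts in the air library with the highest floor. With that transcript at its bound, the median log2 fold change of the 75 was 2.44. The other 52 had an air median of 4.03 CPM per kilobase and a gas phase median of 21.9, with a median fold change of 4.83. Among all tested transcripts with a length, 43.4% were below 1 CPM per kilobase in air, against 30.7% of the 75.

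In air, the 75 higher transcripts had a median level of 2.12 CPM per kilobase, against 1.30 for all tested ones. The 30856 tested transcripts with a length were parted into 3 classes of nearly equal size by their level per kilobase in air. The low class held 13 higher and 0 lower transcripts, the middle class 28 and 2, and the high class 34 and 14. By the mean level over both groups, which includes the change itself, the low class held 4 and 1, the middle class 11 and 4, and the high class 60 and 11. In the gas phase, 49 of the 75 reached 10 CPM per kilobase or more. Of the 16 lower transcripts, 8 were below 1 CPM per kilobase in the gas phase, and their group median went from 5.21 CPM per kilobase in air to 0.973. None of the 16 was at 0 counts in all gas phase libraries. Median length was 1632 nt for the higher and 1524 nt for the lower transcripts, against 1921 nt for all tested ones.

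Summed over the 75 higher transcripts, the level was 490.4 to 696 CPM in the 6 air libraries and 3395, 3923, 2359 and 2601 CPM in gas phase replicates 2, 3, 7 and 10. These sums describe transcripts chosen for their difference and carry no test. The highest air sum was that of Air Control replicate 14, the library with the large share of abundant transcripts. Summed over the 16 lower ones, air ran from 222 to 474 CPM and gas phase replicates 2, 3, 7 and 10 were at 78.3, 66.1, 57.1 and 88.8 CPM. The shallow replicates 4 and 5 were at 1767 and 543 CPM for the higher transcripts and at 64.5 and 189.9 CPM for the lower ones. Replicate 5 was thus within the air range on the first sum and below it on the second.

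The 4 gas phase seedlings did not rank alike over the rising transcripts. Replicate 3 had the highest level for 29 of the 75 and replicate 2 for 25, replicate 7 for 15 and replicate 10 for 6. The lowest of the 4 levels was most often that of replicate 10 (30 transcripts) or replicate 7 (29). Replicate 10 also had the highest level for 8 of the 16 lower transcripts. The ratio of the highest to the lowest gas phase level had a median of 2.56 over the 75, close to the 2.54 over the 28726 tested transcripts with counts in all 4. The coefficient of variation of the 75 had a median of 39.3% in the gas phase and 37.7% in air, against 42.6% and 42.5% over all tested transcripts.

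**Figure D4:**
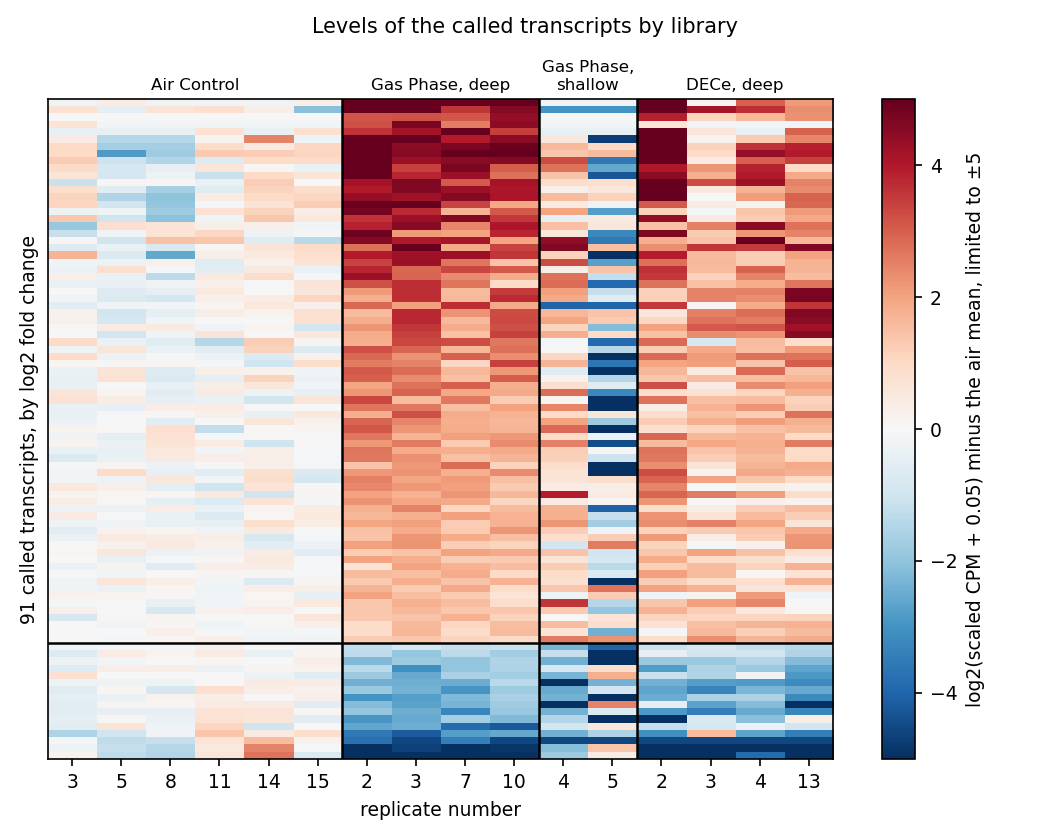
Levels of the 91 called transcripts (rows, by log2 fold change) in each library (columns, by replicate number), as log2(scaled CPM + 0.05) minus the mean of the air libraries, limited to ±5. The deep gas phase block is red for all 75 higher rows and blue for all 16 lower rows, shallow replicate 4 is mostly of the same colours, and shallow replicate 5 is mixed.

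Transcripts present in one group and undetected in the other were few. Of all transcripts in the table, 13 had counts in all 4 gas phase libraries and 0 in all air libraries, and 30 had counts in all 6 air libraries and 0 in all gas phase ones. After a random thinning to 13659729 counts these numbers were 26 and 15, so their order was not kept. The criteria ask for different numbers of libraries, and the part of depth was not tested. Of the 13, 1 had enough counts to be tested, and it was called. Of the 30, 2 were tested and none was called. Their levels were at most 4.19 CPM in a gas phase library and 1.60 CPM in an air library.

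The 2 shallow gas phase libraries, which took no part in the choice of the 91, differed from each other. A called transcript was judged in them where its lowest level in the group with the higher levels lay above the floor of 3 counts. In replicate 4, 44 of 66 judged higher transcripts lay above the whole air range, as did 18.9% of all tested transcripts judged the same way. Of the other higher ones, 19 lay within the air range and 3 below it. There, 12 of 12 judged lower transcripts lay below the air range, against a background of 42.4%. The backgrounds were not matched for air level, while the called transcripts were chosen for air levels away from their gas phase levels. For psme_t087737 air was at most 0.525 CPM, under the 1.90 CPM that 3 counts stand for in replicate 4. A few counts can place such a transcript above air, so the contrast with the background carries no test. In replicate 5, 16 of 59 higher transcripts lay above the air range, against 13.8%, and 7 of 10 lower ones lay below it, against 56.4%. Of those 59, 30 were scored below the whole air range and 13 within it, with a median log2 difference from air of -0.32. Among the 59, 13 had 0 counts in replicate 5. A higher transcript was judged by its gas phase level, so its air range could lie under the floor, 3.54 CPM in replicate 5. At psme_t031924, with 0 counts there, air was 0.170 to 1.40 CPM. A count of 0 cannot be told from such air levels, so not all of the 30 are shown to lie below air. The same limit holds in replicate 4. A background for lying below air is given only for transcripts judged as the lower ones were (56.4% in replicate 5). The 30 are therefore not shown to be particular to the called transcripts. Of the 10 lower ones, 2 lay above the air range and 1 within it. The TMM factors were 0.249 in replicate 4 and 0.125 in replicate 5, against 0.887 to 1.41 in the deep gas phase libraries, so levels in the shallow libraries rest on a large scaling. With both shallow libraries in the fit, 19 transcripts were called, 9 higher and 10 lower, and 15 of them were among the 91. The part of depth and of the abundant transcripts in this difference was not tested.

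Against unfiltered exhaust of the same fuel, edgeR called no transcript in the gas phase needles. The 4 deep gas phase libraries were set against the 4 DECe libraries of at least 10000000 counts, a comparison that uses no air library. Of 27271 tested transcripts 0 (0%) changed (edgeR, adjusted p under 0.05, smallest 0.278), 838 had an unadjusted p under 0.05, and limma-voom also called 0 while DESeq2 called 14. Without a filter on low counts edgeR called 149. Of the 75 higher transcripts 73 were tested here, with a median log2 difference (gas phase minus DECe) of 0.45 against 0.00 for all tested ones. Levels overlapped between gas phase and DECe for 70 of the 73 (95.9%), against 97.8% of all tested transcripts. Of the 73, 9 had an unadjusted p under 0.05. The 13 tested of the 16 lower ones had a median of -0.22, and 12 of them overlapped (92.3%). Since the 91 were chosen for extreme levels in these same gas phase libraries, differences away from 0 in the direction of the choice carry no weight here.

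The interval of the difference was wide for many of these transcripts, so they are not shown to be alike. For 47 of the 73 higher (64.4%) and 9 of the 13 lower ones (69.2%), the 95% interval lay within 4-fold in either direction, as it did for 20188 of all 27271 tested transcripts (74.0%). For psme_t004745 the log2 difference from DECe was -0.03 (95% interval -0.68 to 0.61), with DECe replicates 2, 3, 4 and 13 at 4.69, 4.77, 6.17 and 3.83 CPM. For psme_t005030 it was -0.22 (-1.23 to 0.78), with 2.88, 5.35, 5.35 and 1.75 CPM in the same DECe libraries. Both transcripts thus lay below the whole air range in each of these DECe libraries. In the deep gas phase libraries this was a condition for naming them. The share of all tested transcripts below air in the DECe libraries is not given here. For psme_t045236 it was 0.60 (-0.43 to 1.62), with 111, 25.9, 67.6 and 28.3 CPM in DECe, all above the highest air level. For psme_t178408 it was 0.45 (-2.68 to 3.58), and DECe replicates 2, 3, 4 and 13 held 276, 1, 15 and 3 counts, or 10.6, 0.0119, 0.401 and 0.195 CPM. Any comparison of DECe with air uses the same 6 air libraries as the comparison above, so its values are not a separate observation.

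Summed levels in these 4 DECe libraries were 1567 to 2985 CPM for the 75 higher transcripts and 55.3 to 124 CPM for the 16 lower ones. The DE group had 1 deep library, replicate 5, and so no test. In it the sums were 1718 and 98.4 CPM, psme_t045236 was at 7.22 CPM, psme_t178408 had 1 count, and psme_t004745 and psme_t005030 were at 5.82 and 5.52 CPM. In that library the rising pair was thus at air levels and the falling pair below them.

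**Figure D5:**
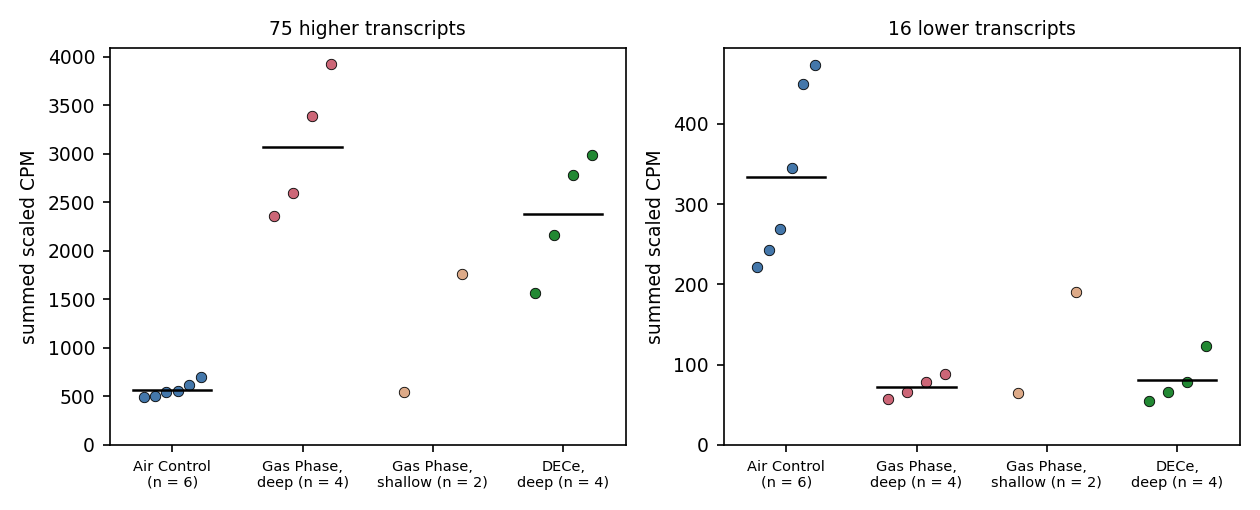
Summed level (scaled CPM) of the 75 higher (left) and the 16 lower (right) transcripts, each point a library and each bar a group mean, with no bar for the 2 shallow libraries. Air lies at 490.4 to 696 and deep gas phase at 2359 to 3923 on the left; the deep DECe libraries reach 1567 to 2985.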

How the data were processed

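Per the labels' protocols, FastTrack MAG kits gave poly(A) RNA from needle total RNA, and PrepX kits turned it into Illumina libraries. CASAVA 1.8.2 is named in the submitters' processing notes. Not given in the sources used here are the aligner, the counting tool, the transcriptome used as reference, the strand setting and how shared reads were treated. Per the file headers, the deposited tables hold raw counts per transcript and RPKM per transcript by the authors. Transcript lengths are those implied by dividing counts by the deposited RPKM values.

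The libraries, the comparison and the rules were chosen with earlier results of these data known. Counts of the 10 libraries entered edgeR 4.0.16 under R 4.3.3 (filterByExpr with a minimum count of 10, TMM scaling, robust glmQLFit and glmQLFTest), and p-values were adjusted by Benjamini-Hochberg over all tested transcripts. SE is the log2 fold change divided by the signed root of F. TMM factors of the other libraries were taken against the same reference library. Named transcripts are, in each direction, the 2 with the smallest p-value among called ones that do not overlap between groups and whose median in the higher group reaches 1 CPM, and the most abundant of each group. Distances were Euclidean on log2 CPM (prior count 2). The steps were tested on simulated counts and run with limma 3.58.1 and DESeq2 1.42.0 as alternatives. Counts of any pair of replicates differed far beyond sampling noise (chi-square of at least 61.0 per degree of freedom), so each library counted as 1. The exact intervals of the count ratios and the floors cover counting error only. The intervals of the log2 differences between gas phase and DECe come from the edgeR fit and include the spread among seedlings.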

Additional observations from a re-analysis of the deposited data

Results flagged for a closer look

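Within groups of 4 or 6 libraries, 30 sets of values were checked for a library far from the rest, which chance alone flags in about 1 of 20. There were 4. For psme_t178408, gas phase replicate 7 at 8.41 CPM lay far above the other 3 deep gas phase libraries, the nearest at 2.32 CPM, and DECe replicate 2 at 10.6 CPM lay far above the other 3 deep DECe libraries, the nearest at 0.401 CPM. Among the deep DECe libraries, replicate 13 had the lowest share of counts in the abundant transcripts, 37.6% against 43.6% in the nearest, and replicate 3 had the highest TMM factor, 1.40 against 1.27. No cause was tested for these values.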

How the results depend on the processing

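The number of transcripts called between gas phase and air moved by more than 1.5 times with library sizes alone (172 calls), no filter on low counts (511), DESeq2 (782), limma-voom with quality weights (207), limma on log2(RPKM + 1) (156), edgeR with legacy=FALSE (171), all 6 gas phase libraries (19) and, in an alternative added after the data were seen, without Air Control replicates 11 and 14 (40). Leaving out 1 library gave 22 to 132. The other alternatives gave 89 to 136. In each alternative more transcripts were higher than lower, except with all 6 gas phase libraries (9 higher, 10 lower). A like number of calls did not mean the same transcripts. Of the 91, limma on log2(RPKM + 0.1) kept 45, limma on log2(RPKM + 1) 51 and library sizes alone 56. A fit of all deep libraries together kept 65. Each other alternative on all 10 libraries kept 82 to 91. The cause of these differences was not tested. Against deep DECe, no filter gave 149 calls and DESeq2 14, leaving out 1 library gave 0 to 2, and each other alternative gave 0. The replicate block, on the 4 libraries whose numbers 2 and 3 are shared, gave 0 calls (3243 with an unadjusted p under 0.05). These numbers are not known to pair seedlings, and the deviations of same-numbered libraries correlated at 0.13 and -0.19. For gas phase against air no paired analysis was possible because the 2 groups share a single number. The group share of squared distances was 15.9% to 18.7% when 1 library was left out (exact permutation tests, p = 0.0159 to 0.0833) and 16.8% to 22.4% otherwise (exact p = 0.00952 to 0.0286). The rising transcripts named kept their call in every alternative that tested them, and no named transcript changed sign. At 13659729 counts a floor of 3 counts is 0.248 CPM in gas phase replicate 10, which limits what low transcripts can show.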
